A study of Mus musculus with 74 samples.

Results

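The genes that encode the motors of axonal transport were followed in L4 dorsal root ganglia (DRG) of mice after spinal cord injury (SCI) or sciatic nerve injury (SNI). The members are the protein-coding genes for kinesin heavy chains, kinesin light chains, the kinesin-associated protein, cytoplasmic dynein subunits and dynactin subunits, found by their symbols (beginning with Kif and a digit, Kifap, Kifc, Klc, Dync or Dctn) among those with a mean of at least 10 reads over the 8 whole DRG libraries. Of 53379 genes in the count files, 21865 were protein-coding and 61 matched by symbol, and 57 of those 61 passed the count minimum. The genes left out were Kif12, Kif18b, Kif28 and Kif2b, with means of 0.25, 4.0, 1.75 and 0.0 reads.

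Whole L4 DRG were taken from female wild type C57BL/6 mice of 10 to 12 weeks, 4 uninjured and 4 at 1 day after SCI, with 1 library per mouse. SCI was a dorsal hemisection at T9/10, which cuts the central branch of dorsal column axons, and SNI was a crush of the sciatic nerve, which injures the peripheral branch. YFP-positive L4 neurons were sorted by FACS from female Thy1YFP16 mice of 10 to 20 weeks, 6 of them naive, with 4 mice per injured group. These groups are called SNI 1d, SNI 3d, SCI 1d or SCI 3d by injury and day of collection. The naive mice were labelled as controls of day 1 (mice 1, 2 and 5) or day 3 (mice 3, 4 and 6) and were pooled into 1 group. Injured and naive mice alike carried that transgene, in which the Thy1 promoter drives YFP in large sensory neurons whose axons ascend the dorsal column. From each mouse 3 wells of 100 cells were sequenced, and the wells were summed, so that the mouse is the replicate. Whole DRG after SNI were not analysed here.

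Axonal transport moves cargo over long distances between the cell body of a sensory neuron and the ends of its axon. Most kinesins walk toward the plus ends of microtubules, which point away from the cell body in axons, and so carry vesicles, mitochondria, RNA and cytoskeletal proteins outward. Cytoplasmic dynein, working with the dynactin complex, walks the other way and returns signalling endosomes, injury signals and worn organelles to the cell body. Several other kinesins serve cell division, and a few serve cilia or the ends of microtubules.

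Whole DRG libraries held 21959030 to 44493319 reads on genes and the summed FACS mice 30518187 to 83599972. FACS neurons were much noisier, with a common biological coefficient of variation of 1.19 against 0.133 in whole DRG. Of the 66 wells, 20 from 14 mice held over 2% of their reads on 9 markers of satellite glia and Schwann cells (3.18% to 14.4%, against 0.167% to 1.28% in the other 46). In these glia-rich wells the 10 neuronal markers held a median of 0.0501% of reads against 3.46% in the other wells, although SNI 3d mouse 3 (wells a and b) and SCI 3d mouse 3 (well a) held 1.08% to 1.78%. A list of large-fibre neuron markers did not separate the wells, with a median of 0.306% (0.157% to 0.778%) in glia-rich and 0.322% (0.0593% to 0.84%) in other wells. The glia-rich wells fell on all groups (6 of 18 naive wells, 3 of 12 in SNI 1d, 4 of 12 in SNI 3d, 3 of 12 in SCI 1d and 4 of 12 in SCI 3d). They fell unevenly on the sets named in the library titles, with 7 of 36 wells in the FACS set and 13 of 30 in the FACS2018 set. SNI 3d mouse 3 and SCI 3d mouse 3, both of the FACS2018 set, had no other wells. The main FACS results are therefore given with all wells and without the glia-rich ones. Leaving these out keeps only well a of naive mouse 5 and of naive mouse 6. In the other wells nociceptor markers held a median of 0.0275% of reads (0.00106% to 3.75%). The highest share was in well a of naive mouse 5, where neuronal markers held 1.22%. In whole DRG, uninjured mouse 1 stood apart for several motors, as given below.

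In uninjured whole DRG the motors together took 18610 ± 1361 CPM (SD, n = 4). Here CPM is the reads of a gene per 1e6 reads on the genes fitted, scaled between libraries by TMM factors. Values per well and levels without glia-rich wells are unscaled, as plain reads per 1e6 reads on genes, and so are not on the same scale. The 18 genes of the core transport machinery (kinesin-1, its main light chains, kinesin-2, Kif1a, Kif1b, cytoplasmic dynein 1 and the dynactin subunits Dctn1 and Dctn2) took 85.3% of the motor total. Levels are compared between genes only per kilobase of exon. On that scale the most abundant member was Klc1, the light chain that couples kinesin-1 to cargo, at 573.8 ± 33.3 CPM per kilobase, above 99.8% of the genes tested. Kif5a, the neuronal heavy chain of kinesin-1, followed at 268.3 ± 38.5 and Kif5c, another neuronal heavy chain, at 205 ± 20.7. The samples of Klc1, Kif5a and Kif5c did not overlap, whereas Kif5c could not be separated from the next gene, Kif21a, at 184 ± 12.6. Kif21a is a kinesin that halts microtubule growth and is expressed in neurons.

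Below these stood Dctn3 at 177.7 ± 36.9, Kif1a at 149.6 ± 19.8 and Kif1b at 116.6 ± 10.7 CPM per kilobase. Kif1a and Kif1b are kinesin-3 motors, known for the transport of synaptic vesicle precursors, dense core vesicles and mitochondria. Dctn2, Dync1li2, Dync1h1, Kif5b, Klc2 and Kifap3 lay close together between 111.0 and 94.7, with no neighbouring pair apart beyond the spread of samples. The order ended with Kif6 at 0.115 ± 0.0076, Kif15 at 0.0988 ± 0.0259 and Kif14 at 0.0245 ± 0.00684. Kif15 and Kif14 are kinesins of the mitotic spindle and of cytokinesis. The median member lay at 9.0 CPM per kilobase, against 3.34 for all genes tested.

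**Figure D1:**
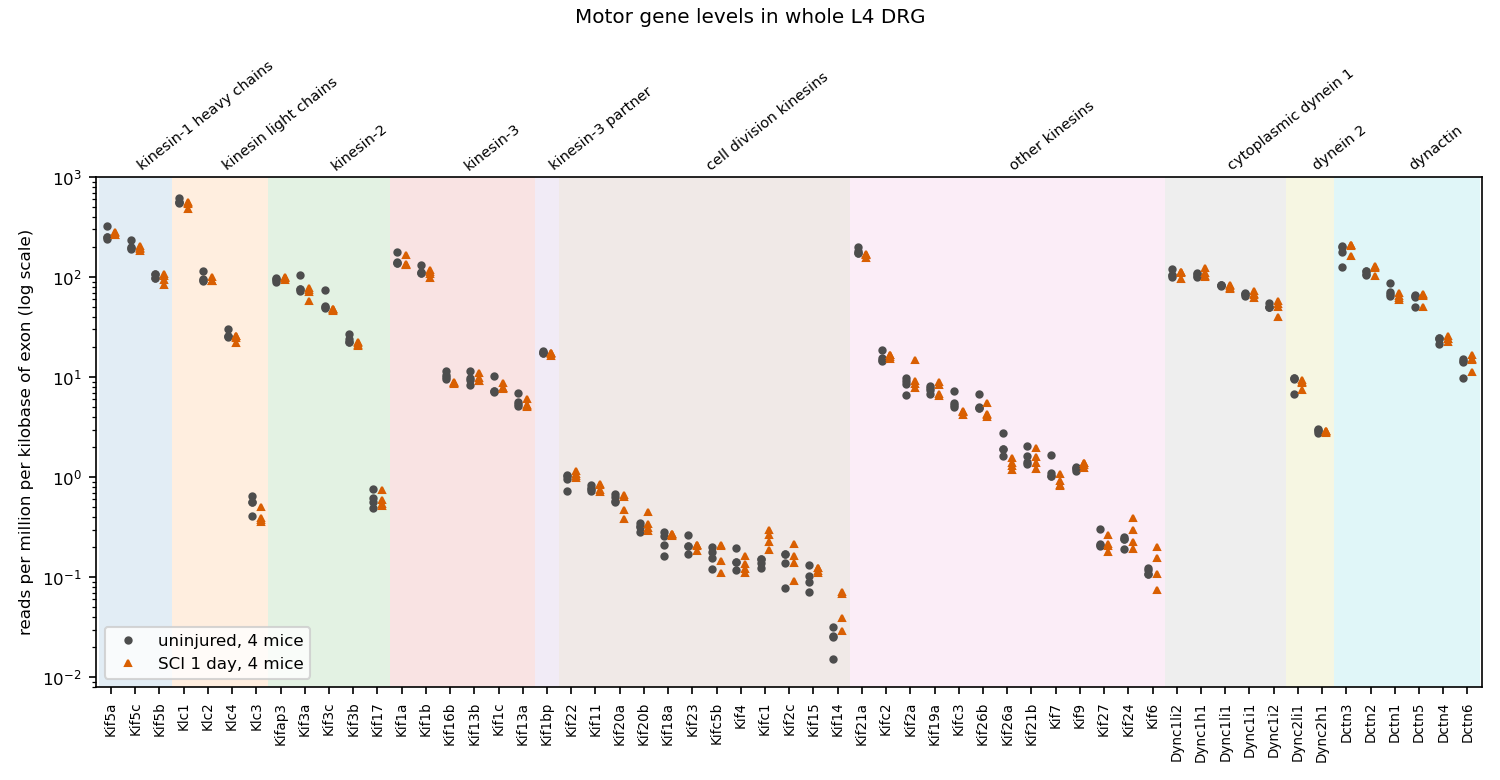
Levels of the 57 motor genes in whole L4 DRG, in CPM per kilobase of exon on a log scale, with 1 point per mouse for 4 uninjured and 4 SCI 1d mice. Within each role genes are ordered by level, and most cell division kinesins sit low, down to Kif14 at 0.0245 in uninjured mice, while Klc1 is highest at 573.8.

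To find out whether SCI shifts the expression of motors within 1 day, SCI was compared with uninjured whole DRG. No motor gene passed an adjusted p of 0.1 by edgeR's quasi-likelihood test, which was run across 17616 genes, of which 408 passed (2.32%, 243 higher and 165 lower). At an unadjusted p under 0.05 there were 7 motor genes of 57 (12.3%, 2 higher and 5 lower) against 14.6% of all genes tested, and the samples of the groups did not overlap for 7 motor genes (12.3%, 1 higher and 6 lower) against 11.0% of all genes. Both shares of the motors were thus close to the background. DESeq2 called 3 of them (5.26%), named below, against 5.27% of all genes by the same tool. The median motor gene differed by a log2 fold change of -0.04, against 0.01 for all genes tested. In whole DRG, fewer cells of a type and less RNA per cell cannot be told apart.

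The spread was small enough to bound the core machinery. For all 18 core genes the 95% confidence interval of the fold change lay within 1.5-fold in either direction, with a lowest bound of 0.695 and a highest of 1.23. Over all members the interval lay within 1.5-fold for 43 of 57 genes and within 2-fold for 55. Summed over members, the levels were 18610 ± 1361 CPM in uninjured and 17870 ± 460.3 CPM in SCI mice.

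Kinesin-1, the main motor for outward transport, was measured through its heavy chains and light chains. Kif5a stood at 2272, 1780, 1671 and 1778 CPM in the 4 uninjured mice and at 1919, 1836, 1957 and 1862 in the 4 SCI mice. The groups overlapped, uninjured mouse 1 was the highest, and the log2 fold change was 0.01 ± 0.09 (SE). Kif5b, the heavy chain found in all cells, gave 864.7, 787.4, 788.8 and 855.8 in uninjured mice and 811.7, 754.9, 668.6 and 854.6 in SCI mice, with a log2 fold change of -0.09 ± 0.08. The neuronal Kif5c gave 1682, 1393, 1354 and 1427 against 1408, 1317, 1472 and 1374, with a log2 fold change of -0.07 ± 0.08. All 4 light chains lay on the lower side, from -0.41 ± 0.20 for the scarce Klc3 to -0.07 ± 0.08 for Klc2, and none passed the test. Klc1 stood at 2533, 2286, 2225 and 2296 in uninjured and 2257, 2172, 1933 and 2319 in SCI mice, with overlapping groups and a log2 fold change of -0.11 ± 0.07.

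Kinesin-2 carries vesicles in axons and material into cilia, as a pair of unlike heavy chains (Kif3a with Kif3b or Kif3c) bound to the adaptor Kifap3. Kif3c gave 551.6, 367.6, 375.8 and 383.8 CPM in uninjured mice and 340.2, 345.4, 358.8 and 358.1 in SCI mice. These groups did not overlap, but the lowest uninjured and the highest SCI value lay close together, and with uninjured mouse 1 far above the rest the log2 fold change was -0.26 ± 0.12 (edgeR adjusted p = 0.36). On the opposite strand an antisense gene shares 35.3% of the exon bases of Kif3c, and with the strand setting of the counts not given in the sources used here, reads of the pair cannot be told apart. Kif3b was lower without overlap too, at 150.7, 126.7, 126.6 and 136.1 against 124.9, 116.2, 119.5 and 126.1 (log2 fold change -0.15 ± 0.07, edgeR adjusted p = 0.37). Kif3a differed by -0.24 ± 0.13 and Kifap3 by 0.05 ± 0.05 on the log2 scale.

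Among the kinesin-3 motors, Kif1a gave 1673, 1302, 1297 and 1310 CPM in uninjured mice and 1261, 1225, 1560 and 1231 in SCI mice. In each group 3 mice lay close together and 1 lay far above, and the log2 fold change was -0.08 ± 0.11. Kif1b stood at 2331, 1926, 1954 and 2003 against 1970, 1726, 2066 and 1899, with overlapping groups and a log2 fold change of -0.10 ± 0.08. Kif16b, which moves early endosomes, was lower in all 4 SCI mice, with 105.8, 95.9, 86.4 and 91.6 in uninjured and 79.1, 78.7, 81.0 and 77.0 in SCI mice. Its log2 fold change was -0.26 ± 0.07, and the edgeR adjusted p of 0.13 missed the threshold, whereas DESeq2 gave an adjusted p of 0.035.

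Cytoplasmic dynein 1, the motor for transport back to the cell body, varied little between mice. Dync1h1, the heavy chain that holds the motor domain, gave 1737, 1568, 1666 and 1590 CPM in uninjured mice and 1736, 1568, 1918 and 1595 in SCI mice, with a log2 fold change of 0.06 ± 0.07. Its intermediate chains (Dync1i1, Dync1i2) and light intermediate chains (Dync1li1, Dync1li2), which bind dynactin and adaptors, had log2 fold changes between -0.06 and -0.0009. Dctn1, the large dynactin subunit that binds microtubules and dynein, gave 573.6, 440.4, 424.6 and 458.4 against 420.5, 386.0, 447.4 and 399.6 (log2 fold change -0.20 ± 0.10, edgeR adjusted p = 0.38). The other 5 dynactin subunits lay on the higher side, from 0.03 to 0.15 on the log2 scale, and none passed the test. The dynein 2 genes Dync2h1 and Dync2li1, which serve return transport in cilia, differed by -0.04 ± 0.06 and -0.07 ± 0.13.

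**Figure D2:**
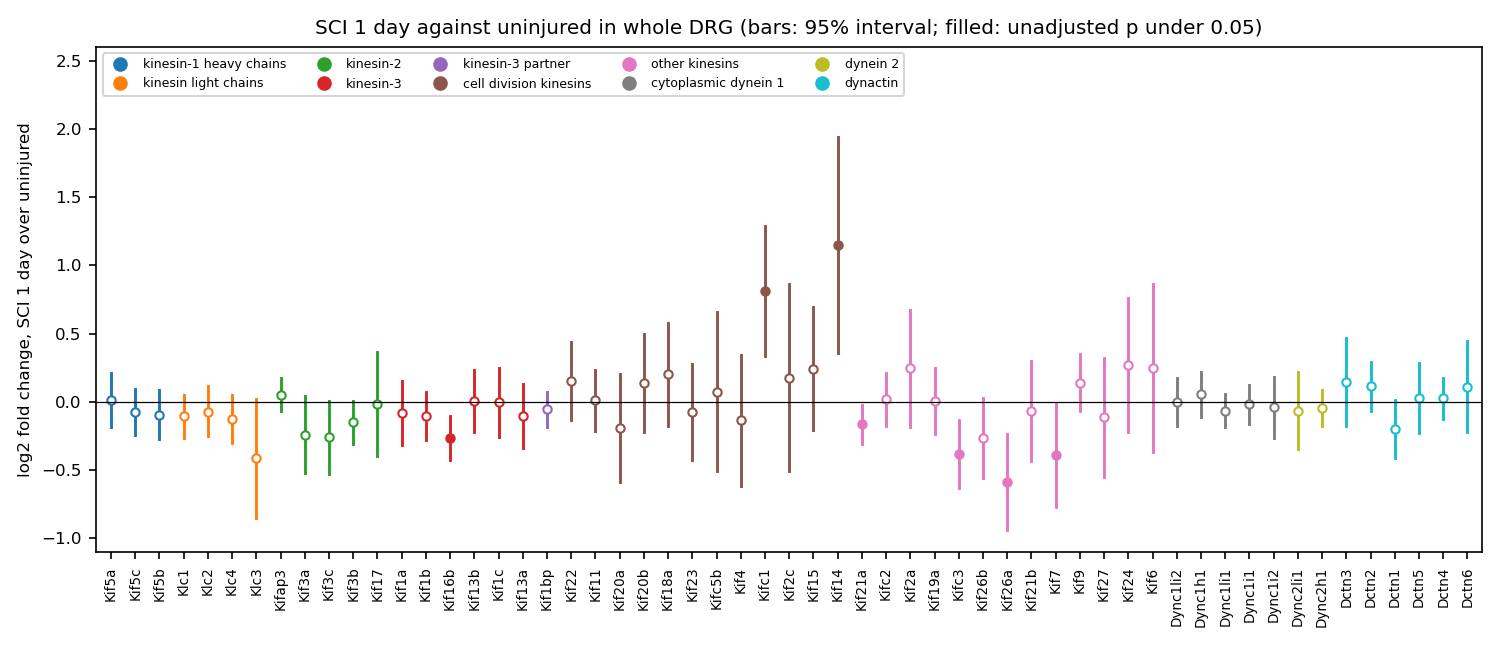
Log2 fold change of each motor gene between SCI 1d and uninjured whole DRG, with the 95% confidence interval, coloured by role and filled where the unadjusted p was under 0.05. The core genes lie near 0 with narrow intervals, and the widest departures are of the scarce Kifc1, Kif14 and Kif26a.

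The members with the smallest p in whole DRG were mostly scarce kinesins outside the core. Kif26a, an unusual kinesin that binds microtubules without motor activity, gave 19.0, 13.4, 11.2 and 13.3 CPM in uninjured mice and 8.21, 8.99, 10.9 and 9.53 in SCI mice. All 4 SCI mice lay below all 4 uninjured mice, with a log2 fold change of -0.58 ± 0.16 (edgeR adjusted p = 0.13). DESeq2 called Kif26a lower, at an adjusted p of 0.022, and so did edgeR without SCI mouse 3, at an adjusted p of 0.098. That was the only call among 8 edgeR fits that each left out 1 mouse, with adjusted p up to 0.308. Kifc3, a motor that walks toward microtubule minus ends and is known from epithelial junctions, gave 38.7, 28.1, 29.5 and 26.6 against 22.2, 24.5, 23.8 and 23.6. Its groups did not overlap, its log2 fold change was -0.38 ± 0.11, and its adjusted p was 0.16 by edgeR and 0.06 by DESeq2. The abundant Kif21a was 1305, 1137, 1129 and 1194 in uninjured and 1086, 995.8, 1072 and 1096 in SCI mice, without overlap, but the log2 fold change was only -0.17 ± 0.06 (edgeR adjusted p = 0.27).

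The cell division kinesins Kifc1 and Kif14 lay on the higher side, both at levels of around 1 CPM or less. Kifc1, which focuses spindle poles, was at 0.515, 0.518, 0.418 and 0.472 CPM in uninjured mice and 0.908, 0.642, 1.02 and 0.765 in SCI mice. Every SCI mouse lay above every uninjured mouse, with a log2 fold change of 0.81 ± 0.21 (edgeR adjusted p = 0.12) on only 11 to 44 reads per library. Kifc1 has a near-identical copy, Kifc5b, so its reads are uncertain. Kif14 gave 0.328, 0.270, 0.262 and 0.157 against 0.303, 0.713, 0.741 and 0.405, which overlapped (log2 fold change 1.15 ± 0.36, edgeR adjusted p = 0.17). Over the 12 cell division kinesins, 9 lay on the higher side with a median log2 fold change of 0.15, and none passed the test. Beside them, the 4 measured proliferation markers of 6 lay on the higher side too, with a median log2 fold change of 0.33 and none called. Summed, the proliferation markers held 0.000627% to 0.000712% of reads in uninjured and 0.000444% to 0.0011% in SCI mice. Of 7 blood cell markers 4 were called higher after SCI, at a median log2 fold change of 1.35 over the list. The part of dividing or blood cells in the kinesin values was not tested.

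The order of motor levels in FACS neurons is given on the same scale. The motors together took a median of 8038 CPM in the 6 naive mice (5725 to 8348). Klc1, the top gene of whole DRG, lay at 33.5 ± 18.2 CPM per kilobase (SD, n = 6) in naive FACS neurons, while Dctn3 led at 224.4 ± 68.5, followed by Dctn5 at 142.4 ± 42.4 and Kif3a at 110.9 ± 20.4. Whole DRG RNA was depleted of ribosomal RNA and FACS wells were amplified from few cells with another kit, so that cell type and library protocol cannot be told apart in this comparison, and it was not tested. Of the 57 members, 55 passed the read minimum in FACS mice (at least 20 reads in at least 1 mouse).

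**Figure D3:**
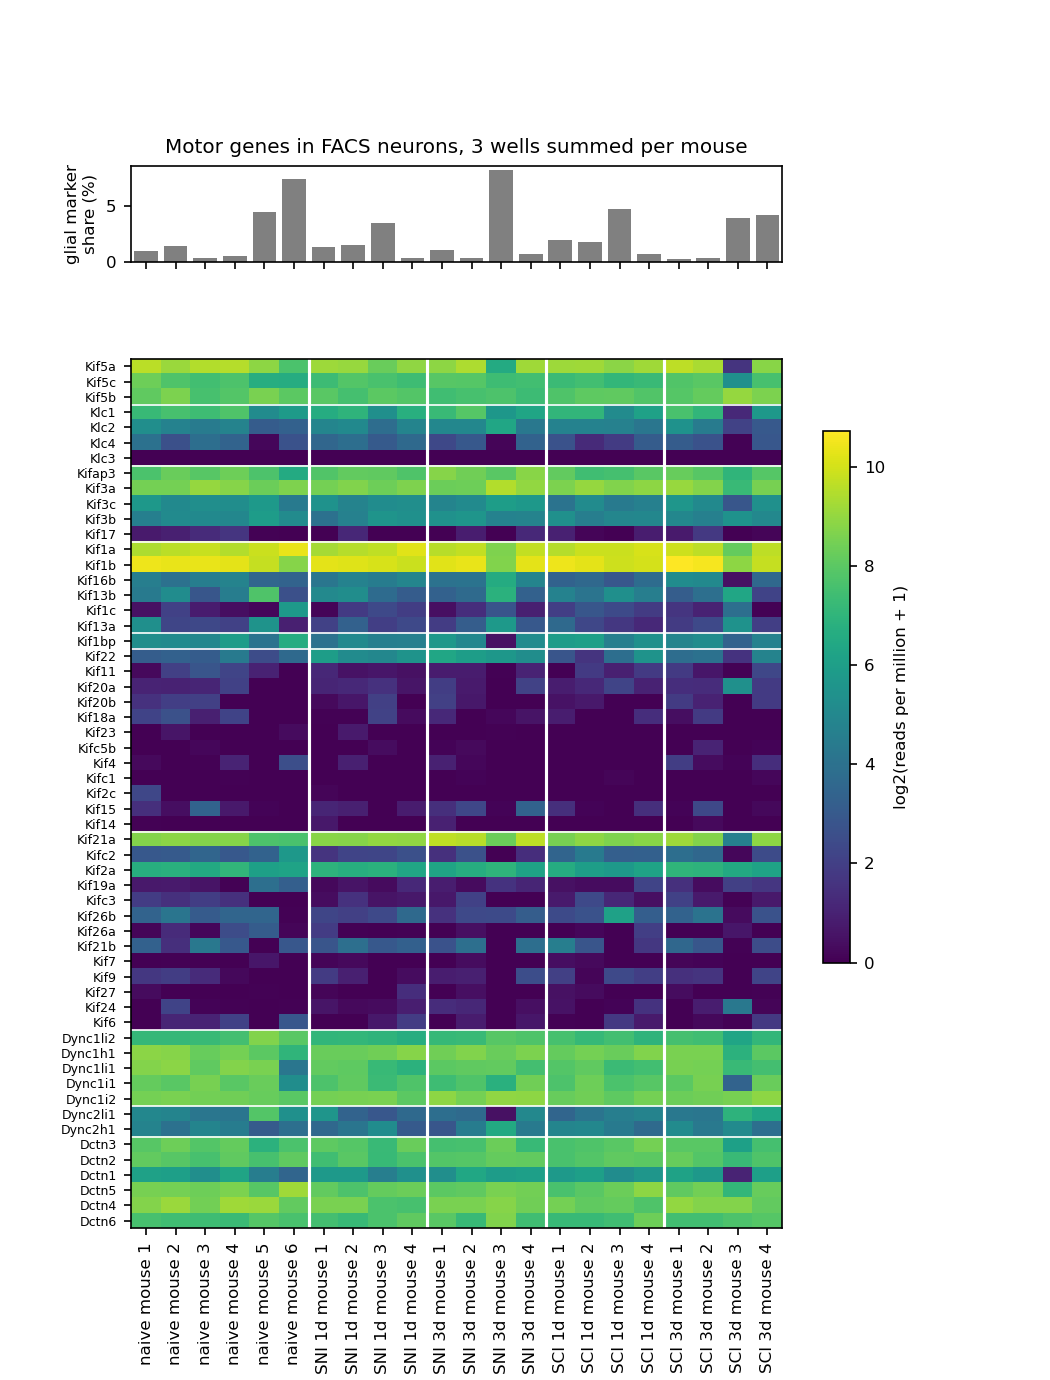
Motor genes in the 22 FACS mice as log2(CPM + 1), 3 wells summed per mouse, below the share of each mouse's reads on 9 glial markers. Naive mouse 6, SNI 3d mouse 3 and SCI 3d mouse 3, with high glial shares, show low Kif5a, Klc1 and Dync1i1. Naive mouse 5, also with a high glial share, holds 309.9 CPM of Dync1i1. Klc1 is low too in SCI 1d mouse 4 (69.69) and SNI 3d mouse 4 (78.83), which have no glia-rich well. Kif22 is brighter in the 8 SNI mice than in the 6 naive mice.

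The glia-rich wells carried fewer reads of the neuronal motors. Their motor total had a median of 3152 CPM (1833 to 6083), against 8854 (6867 to 13590) in the other wells, and the ranges did not overlap. Kif5a had a median of 3.77 in glia-rich and 691.1 in other wells, Dync1i1, the neuronal intermediate chain of dynein, 1.48 and 306.2, and Klc1 2.40 and 156.8. In all 12 mice with both kinds of wells, Kif5a, Kif1b, Kif21a, Kif2a, Kif22, Kif3c, Klc2, Klc4 and Dync1i1 were higher in the other wells. By medians 41 motor genes were higher in the other wells and 3 in the glia-rich wells, namely Kif5b (306.4 against 235.8), Kif13b (40.3 against 11.8) and Kif19a (1.12 against 0.05). Kif13b, a kinesin-3, is known to act in myelinating Schwann cells. These values are a description, since the wells were classed by their own reads.

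**Figure D4:**
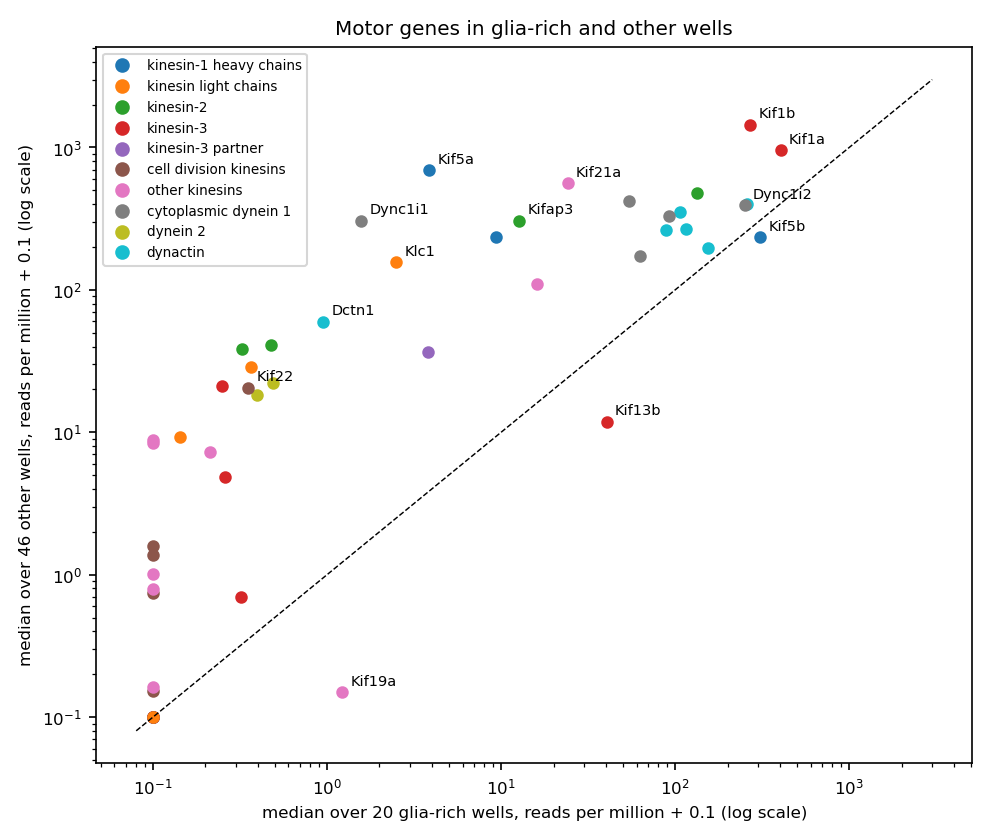
Median level of each motor gene in 20 glia-rich wells (x) and 46 other wells (y), in CPM + 0.1, both axes on a log scale, with a dashed line at equal levels. Most genes lie above the line, Kif5a and Dync1i1 far above it, and Kif5b, Kif13b and Kif19a lie below it.

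To ask how motors respond when the peripheral axon is crushed, SNI 1d and SNI 3d were compared with naive mice. No motor gene was called at SNI 1d by edgeR with all wells, where 122 of 23507 genes were called (0.519%). At an unadjusted p under 0.05 there were 5 of 55 (9.09%, against 14.0% of all genes), the groups did not overlap for 3 (5.45%, against 1.71%), and DESeq2 called 2, Kif22 and Kifc2 (3.64%, against 6.16% of all genes by DESeq2). At SNI 3d the motors called numbered 0 again by edgeR, against 104 genes in all (0.442%), with 7 at an unadjusted p under 0.05 (12.7%, against 13.2%) and 2 without overlap (3.64%, against 1.27%). There DESeq2 called 5, Kif22 and Kifap3 as higher and Kifc2, Kif5b and Kif2c as lower (9.09%, against 9.14% of all genes by DESeq2). The call of Kif2c rests on 211 reads in naive mouse 1, with at most 1 read in any other naive mouse and 0 in every SNI 3d mouse. The DESeq2 shares of the motors were thus at or below the background on both days. Both SNI comparisons share the naive mice. The intervals were wide, within 1.5-fold for only 3 of the 18 core genes at SNI 1d and 2 at SNI 3d, so a moderate difference in most motors was not detectable in FACS neurons. The injury gene Atf3 was called higher on both days.

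Among the motors, Kif22 was higher in every SNI mouse than in any naive mouse on both days. It encodes a kinesin that binds DNA and moves chromosomes in dividing cells, and it lies on chromosome 7 (127027729 to 127042471, minus strand, GRCm38). In the naive mice it ranged from 4.68 to 19.9 CPM with a median of 8.48. The SNI 1d mice held 61.4, 35.3, 30.4 and 44.9 and the SNI 3d mice 79.9, 62.3, 49.6 and 36.6. The lowest SNI mouse thus lay above the highest naive mouse. The log2 fold change was 2.04 ± 0.67 at SNI 1d (edgeR adjusted p = 0.21) and 2.56 ± 0.68 at SNI 3d (edgeR adjusted p = 0.12), and both missed the threshold. Without the glia-rich wells, in unscaled CPM, the naive mice ranged from 7.65 to 28.4. The SNI 1d mice ranged from 41.9 to 80.5 and the 3 remaining SNI 3d mice from 37.7 to 92.4. Kif22 then rose at SNI 1d (log2 fold change 2.04 ± 0.57, edgeR adjusted p = 0.065) and at SNI 3d (2.29 ± 0.61, edgeR adjusted p = 0.062). With the unwanted-variation factors also left out it missed the threshold on both days (1.78, edgeR adjusted p = 0.30, and 2.01, edgeR adjusted p = 0.32). The libraries came in a pair of sets, titled FACS and FACS2018. Within the FACS set the Kif22 log2 fold change was 2.25 at SNI 1d and 2.73 at SNI 3d, and within the FACS2018 set 1.98 and 2.81, and neither set alone gave a call.

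After SCI the Kif22 levels overlapped those of naive mice. The SCI 1d mice held 6.10, 2.02, 13.7 and 44.1 CPM and the SCI 3d mice 13.2, 15.0, 1.98 and 26.5, with log2 fold changes against naive mice of 0.70 ± 0.68 and 0.36 ± 0.68. Set directly against SCI 3d, Kif22 was higher in all 4 SNI 3d mice, with a log2 fold change of 2.20 ± 0.78 (edgeR adjusted p = 0.61), and of 1.63 ± 0.73 without glia-rich wells (edgeR adjusted p = 0.67). Set against SCI 1d, the SNI 1d mice overlapped (1.34 ± 0.75, edgeR adjusted p = 0.56), and the value was 3.69 within the FACS set and 0.39 within the FACS2018 set. In whole DRG Kif22 stayed between 3.60 and 5.68 in all 8 mice, with a log2 fold change of 0.15 ± 0.13 after SCI. Summed, the 6 proliferation markers held at most 0.00289% of the reads of any FACS mouse, a maximum reached in both naive and SNI 3d mice. The naive maximum rested on glia-rich well b of mouse 6 (0.00923%). The SNI 3d maximum came from wells a and b of mouse 1 (0.00211% and 0.00438%), the mouse with the most Kif22. Group medians were 0.000936% in naive, 0.00109% in SNI 1d, 0.00158% in SNI 3d, 0.000803% in SCI 1d and 0.000838% in SCI 3d mice. Whether these markers go with Kif22 was not tested. The Kif22 pseudogene stood at 0.0262 CPM or less in every mouse. Of the 11 cell division kinesins tested, 7 lay higher at SNI 1d and 6 at SNI 3d. Kif14 had an unadjusted p under 0.05 at both SNI days and between SNI 3d and SCI 3d, but it rested on 30 reads in SNI 1d mouse 1 and 48 reads in SNI 3d mouse 1, with at most 1 read in the other SNI mice.

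Stretches of the start regions of Kif22 and Kif21a are shown because these were the motor genes called at both SNI days without the glia-rich wells. The capitals mark the letters TTTGAA or, on the other strand, TTCAAA, the core of the cell cycle homology region (CHR) through which many genes of mitosis are held down outside division. Sequences are from RefSeq on build GRCm38.p6, read 5′ to 3′ on the strand of the gene and ending 1 base before the RefSeq start. For Kif22 30 bases are given, chr7:127042421-127042450, minus strand, which GENCODE vM21 places in its first exon. For Kif21a 100 bases are given, chr15:91049952-91050051, minus strand, outside the GENCODE gene.
Kif22: ggggccccggtaaTTCAAAagagagaagcg
Kif21a: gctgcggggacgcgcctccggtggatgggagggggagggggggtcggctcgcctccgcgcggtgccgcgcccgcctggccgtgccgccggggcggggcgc

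The Kif22 match begins 17 bases before the start, and no match lies in the Kif21a stretch. RefSeq start regions were matched by symbol for 43 of the 57 members. Within 250 bases before the start, either strand of TTTGAA was found in 5 of the 11 cell division kinesins with a region (Kif11, Kif14, Kif15, Kif22 and Kif2c) and in 4 of 32 other members, against 18.3% of 27025 genes. CCAAT, read on both strands, was found in 7 of the 11, in 14 of the 32 and in 37.5% of all genes. A match describes letters and not a working site.

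Kif21a was high at SNI 3d in every mouse but the one with only glia-rich wells. It lies on chromosome 15 (90933276 to 91049948, minus strand). Naive mice ranged from 200.8 to 455.6 CPM with a median of 420.6, and the SNI 3d mice held 832.3, 749.1, 315.5 and 810.9. With all wells the groups overlapped through SNI 3d mouse 3, and the log2 fold change was 0.96 ± 0.34 (edgeR adjusted p = 0.26). Without glia-rich wells, which removes that mouse, the 3 SNI 3d mice lay between 835.4 and 1031 and the 6 naive mice between 156.6 and 542.0. These levels are unscaled and so differ from those with all wells even where no well was removed. SNI 3d mouse 2, with no glia-rich well, went from 749.1 to 891.2. Kif21a then rose by a log2 fold change of 1.03 ± 0.15 at SNI 3d (edgeR adjusted p = 0.0072) and by 0.50 ± 0.14 at SNI 1d (edgeR adjusted p = 0.063). The SNI 1d mice held 561.0 to 660.8 in these unscaled levels, but with all wells they held 432.1 to 504.4 and overlapped naive mice. Without glia-rich wells edgeR called 6.47% of all genes at SNI 1d and 4.99% at SNI 3d, and the median gene lay higher on both days, as given below. With the factors left out as well, the SNI 3d value stayed at 1.04 and missed the threshold (edgeR adjusted p = 0.12), as did the SNI 1d value of 0.49 (edgeR adjusted p = 0.35). Against SCI 3d, whose mice held 568.1, 424.9, 24.7 and 479.1, the log2 fold change was 1.21 ± 0.39 with all wells (edgeR adjusted p = 0.61) and 0.64 ± 0.18 without glia-rich wells (edgeR adjusted p = 0.59).

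**Figure D5:**
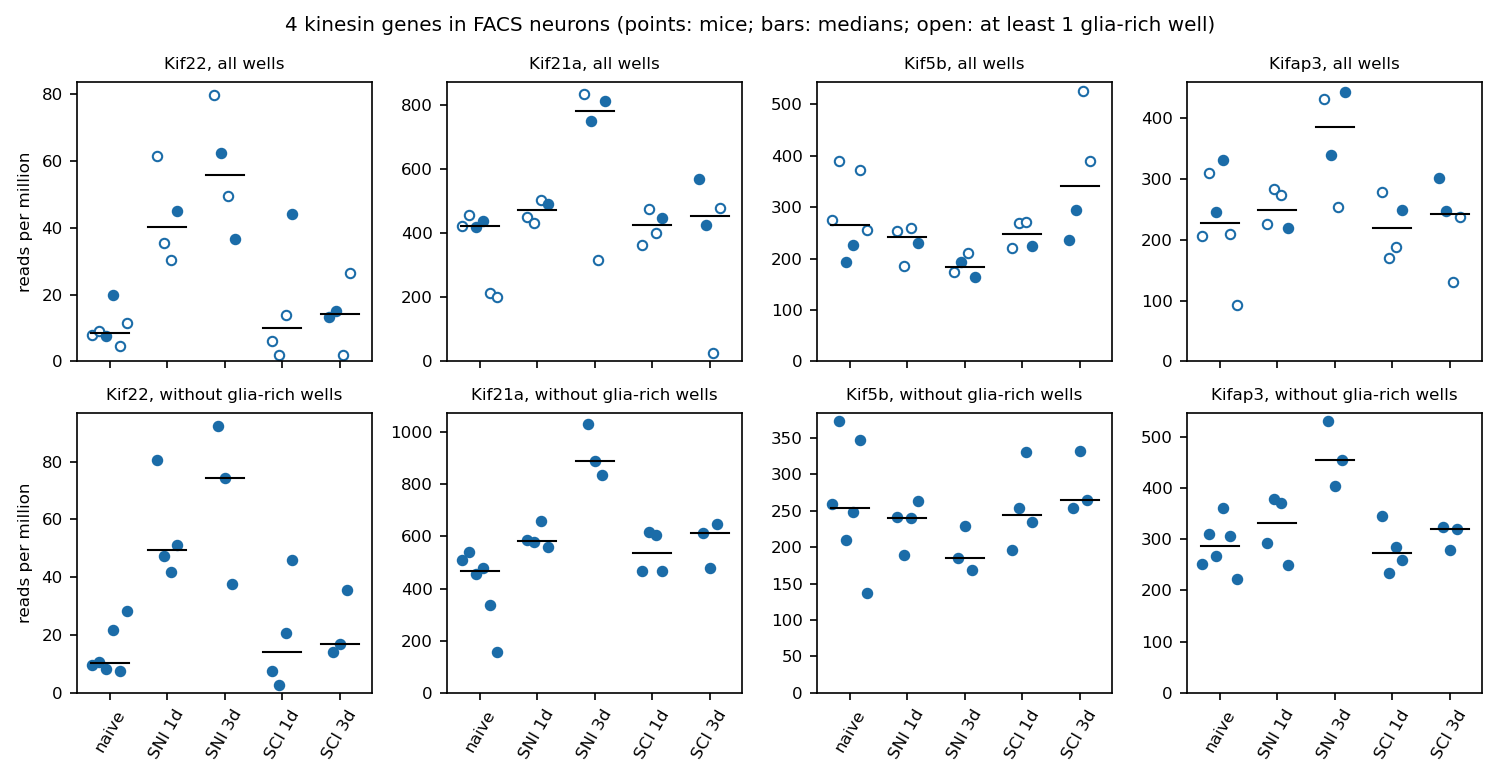
Level in CPM of Kif22, Kif21a, Kif5b and Kifap3 in each FACS mouse with all wells (top) and without glia-rich wells (bottom). The top row is scaled by TMM and the bottom row is not, so levels compare only within a row. Points are mice, bars are group medians, and open points are mice with at least 1 glia-rich well. Kif22 is higher in SNI than in naive mice in both rows, and the low SNI 3d mouse of Kif21a at 315.5 is absent from the bottom row.

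Kifap3, the kinesin-2 adaptor, had 430.8, 339.9, 253.2 and 442.7 CPM at SNI 3d, against 92.1 to 330.4 (median 227.2) in naive mice. Only SNI 3d mouse 3 fell inside the naive range, and the log2 fold change was 0.73 ± 0.24 (edgeR adjusted p = 0.22, DESeq2 adjusted p = 0.038). Without glia-rich wells the 3 SNI 3d mice (404.4 to 532.0 unscaled CPM) lay above all naive mice (222.6 to 361.1). The log2 fold change of 0.57 ± 0.18 just missed the threshold (edgeR adjusted p = 0.11). The heavy chains that it binds differed from naive mice at SNI 3d by no more than their errors, by 0.23 ± 0.28 for Kif3a, 0.05 ± 0.36 for Kif3b and 0.26 ± 0.48 for Kif3c on the log2 scale.

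Kif5b, the heavy chain of kinesin-1 found in all cells, lay on the lower side at SNI 3d. Its levels were 173.9, 192.9, 209.9 and 164.2 CPM at SNI 3d, 235.7, 293.8, 526.5 and 389.3 at SCI 3d, and 192.6 to 390.5 (median 265.5) in naive mice. Every SNI 3d mouse lay below every SCI 3d mouse, with a log2 fold change of -0.92 ± 0.24 (edgeR adjusted p = 0.61, DESeq2 adjusted p = 0.0048). Against naive mice the groups overlapped slightly (-0.61 ± 0.22, edgeR adjusted p = 0.26). The highest SCI 3d value belonged to the mouse with only glia-rich wells. Without those wells the log2 fold change against SCI 3d was -0.57 ± 0.21 (edgeR adjusted p = 0.67). SNI 3d mice at 169.2 to 229.5 unscaled CPM still lay below SCI 3d mice at 254.1 to 332.3. The neuronal heavy chains Kif5a and Kif5c did not separate the groups in any FACS comparison.

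Kifc2, a neuronal kinesin of the minus-end family, lay below all naive mice after SNI. It gave 2.02, 3.62, 3.78 and 5.09 CPM at SNI 1d and 1.77, 5.27, 0.00 and 1.64 at SNI 3d, against 6.67 to 50.8 (median 8.17) in naive mice. The log2 fold change was -2.73 ± 1.30 at SNI 1d (edgeR adjusted p = 0.36, DESeq2 adjusted p = 0.057) and -3.96 ± 1.55 at SNI 3d (edgeR adjusted p = 0.29, DESeq2 adjusted p = 0.00098). The naive value of 50.8 came from mouse 6, which had glia-rich wells, and without such wells the naive range was 0.452 to 15.1 and the log2 fold changes shrank to -0.55 ± 0.48 and -1.25 ± 0.55. At SCI 1d, Kifc2 stood at 10.1, 20.3, 8.59 and 8.77, above every SNI 1d mouse (SNI 1d against SCI 1d -1.68 ± 1.15, edgeR adjusted p = 0.66). Kif16b showed the opposite order at that time, with 17.4, 26.0, 21.5 and 28.4 at SNI 1d and 9.33, 11.2, 6.48 and 12.8 at SCI 1d. Its log2 fold change between SNI 1d and SCI 1d was 1.22 ± 0.81 with all wells (edgeR adjusted p = 0.64) and 1.28 without glia-rich wells, where it was called (edgeR adjusted p = 0.091) among 0.796% of all genes, though not with the factors left out as well (edgeR adjusted p = 0.49).

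Among the dynein and dynactin genes, none was called at SNI 1d or SNI 3d by edgeR or DESeq2 with all wells. Dync1li2, a light intermediate chain of dynein, held 131.4, 137.8, 124.0 and 99.98 CPM at SNI 1d, each just below the lowest naive mouse at 138.5 (median 165.5, highest 410.3). Its log2 fold change was -0.66 ± 0.31 (edgeR adjusted p = 0.35) and -0.28 ± 0.19 without glia-rich wells. The dynein 2 light intermediate chain Dync2li1 was called lower at SNI 1d only without glia-rich wells, as was Kif1bp, a binding partner of kinesin-3. Dync2li1 then ranged from 8.97 to 19.6 at SNI 1d and from 18.3 to 100.9 in naive mice, and Kif1bp from 20.1 to 29.9 and from 26.0 to 65.1. The log2 fold changes were -1.36 ± 0.36 for Dync2li1 (edgeR adjusted p = 0.054) and -0.78 ± 0.23 for Kif1bp (edgeR adjusted p = 0.076), and neither passed with the factors left out as well (edgeR adjusted p = 0.21 and 0.32). Without glia-rich wells 1463 of 22620 genes (6.47%) were called at SNI 1d and 1128 (4.99%) at SNI 3d, against 4 (7.55%) and 2 (3.77%) of 53 motor genes, and the median log2 fold change of all genes moved to 0.35 and 0.33 while that of the motors was -0.05 and -0.15.

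In FACS neurons after SCI, no motor gene was without overlap against naive mice. At SCI 1d edgeR called 11 genes (0.0468%) and no motor gene, with 1 of 55 motors at an unadjusted p under 0.05 (1.82%, against 11.2% of genes) and 0 without overlap (0.574% of genes), and DESeq2 called Kif2c and Kif4 (3.64%, against 4.61% of genes). That 1 gene was Dctn4, a dynactin subunit, at 352.7, 276.8, 290.8 and 219.2 CPM against 279.9 to 578.1 (median 488.7) in naive mice, with a log2 fold change of -0.67 ± 0.27 (edgeR adjusted p = 0.37). At SNI 1d Dctn4 stood at 374.6, 380.5, 201.5 and 191.7, a log2 fold change of -0.66 ± 0.27 against the same naive mice (edgeR adjusted p = 0.29). At SCI 3d edgeR called 12 genes (0.0510%) and no motor gene, with 1 at an unadjusted p under 0.05 (1.82%, against 9.56%), the barely detected Kif23, and 0 without overlap (0.332% of genes), and DESeq2 called 0, against 4.73% of genes. The DESeq2 call of Kif2c rests on 1 mouse, with 3.92 in naive mouse 1, at most 0.01555 in the other naive mice and 0 in the SCI 1d mice. Kif4 was likewise at 0 in all 4 SCI 1d mice and in 2 of the 6 naive mice, with 5.02 in naive mouse 6.

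SNI was also compared with SCI at the same day, which tests the difference between the injuries directly. By edgeR 0 genes of any kind were called at 1 day (0.00%) or at 3 days (0.00%), whereas DESeq2 called 1097 (4.67%) and 853 genes (3.63%). At 1 day 1 motor gene had an unadjusted p under 0.05 (1.82%, against 10.1%) and 2 did not overlap (3.64%, against 4.36%), and DESeq2 called 1, Kif2c, as higher (1.82%). That call rests on 5, 0, 1 and 0 reads of Kif2c in the SNI 1d mice, against 0 in every SCI 1d mouse. At 3 days 5 motor genes had an unadjusted p under 0.05 (9.09%, against 8.15%), namely Kif5b, Kif21a, Kifap3, Kif22 and Kif14, and 2 did not overlap (3.64%, against 1.94%), while DESeq2 called Kif5b, Kifap3 and Kif22 (5.45%). Of the 18 core genes 16 lay higher at SNI 3d than at SCI 3d with all wells, at a median log2 fold change of 0.38 against -0.02 for all genes. This count depended on the glia-rich wells, since without them 8 of the 18 lay higher, at a median of -0.03. SCI 3d mouse 3, which had no other wells, held 2.09 CPM of Kif5a and 1.335 of Klc1, against 449.3 to 808.7 and 51.8 to 196.8 in the other SCI 3d mice.

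The adaptors and partners that tie motors to cargo and tracks, such as the dynein regulators Pafah1b1 and Ndel1, the mitochondrial adaptors Trak1 and Rhot1 and the microtubule proteins Mapt and Map1b, were taken as a list of 44 genes. All 44 were measured in both data sets, and edgeR called 0 of them in each of the 7 comparisons. DESeq2 called 1 in whole DRG (Mapt, lower), 0 at SNI 1d, 4 at SNI 3d (Actr1a, Actr1b, Madd and Snph, 3 of them higher), 2 at SCI 1d (Capza2 and Trak2) and 0 at SCI 3d, and between the injuries 1 at 1 day (Rilp) and 2 at 3 days (Actr1b and Madd). These are 1 and 4 of 44 in whole DRG and at SNI 3d, where DESeq2 called 5.27% and 9.14% of all genes. It called 4.61% of all genes at SCI 1d, and 4.67% and 3.63% between the injuries at 1 and 3 days. At an unadjusted p under 0.05 by edgeR, none lay higher and 5 lower in whole DRG, 2 and 1 at SNI 1d, 5 and 2 at SNI 3d, 3 and 1 at SCI 1d, 0 and 3 at SCI 3d, 2 and 2 between the injuries at 1 day, and 5 and 1 at 3 days. The shares of all genes at that p are those given above for the motors, from 8.15% to 14.6%. Without glia-rich wells edgeR called 3 of the 44 partners at SNI 1d and 4 at SNI 3d, where it called 6.47% and 4.99% of all genes. Madd, a regulator of kinesin-3 cargo, and Map7d1, a microtubule protein that binds kinesin-1, were among them on both days. The median log2 fold change of the partners lay between -0.13 and 0.07 in the 5 comparisons with uninjured or naive mice.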

How the data were processed

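RNA-seq was analysed for 8 whole L4 DRG libraries and 66 FACS wells (74 count files). The authors trimmed reads with cutadapt and PRINSEQ, aligned them with STAR (2.5.3a in the submitters' processing notes) to mm10 (GRCm38) and counted reads per gene with HTSeq (0.6.1), and these counts were deposited without normalization. The strand setting was not given in the sources used here. The 7 series tables hold the authors' normalized values, fold changes and p-values and were not used.

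Groups came from the sample titles. The 3 wells of each mouse were summed, since wells are technical repeats, and all 22 mice were kept, although the authors removed outlying samples. The 5 lines per file that name no gene were left out, among them unassigned and ambiguous reads at 7.7% to 32.5% of a library. Wells held 1494217 to 49015375 reads on genes. No pair of libraries held identical counts. Lengths and coordinates came from GENCODE vM21, and levels per kilobase were divided by merged exon length.

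Genes with a mean of at least 10 reads (whole DRG, 17616 genes) or at least 20 reads in 1 mouse (FACS, 23507 genes) were fitted with edgeR 4.0.16 (TMM scaling, quasi-likelihood F-test, 2-sided) in R 4.3.3, and p-values were adjusted over all genes by Benjamini-Hochberg with a threshold of 0.1. The FACS fit had 2 RUVr factors of unwanted variation, estimated from deviance residuals centred per gene. DESeq2 1.42.0, other filters, other factors, a set term, single sets, naive mice of a single day, glia-rich wells left out and each mouse left out were tried as alternatives. The fits were also run on simulated counts in which only genes with many reads were changed, in FACS neurons by large folds. The outcome is not given here, and it does not cover scarce motors or moderate changes in FACS neurons. SE is the standard error of a log2 fold change, and SD that over mice.

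The members, gene lists and settings, including the centring of the residuals, were chosen with earlier results of these data known. Named genes were the 18 core genes, every member called, the 3 members per comparison and direction with the smallest p among those whose groups did not overlap, and the 3 at the top and the bottom of the levels per kilobase. Others, such as Kif21a, Kifap3 and Kif14, were named after their values were seen.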

Additional observations from a re-analysis of the deposited data

Results flagged for a closer look

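Within groups of 4 to 6 mice, 15 of 154 tests over 25 motor genes found 1 mouse far from the others (levels in CPM, by Dixon's ratio beyond its 95% critical value), which is 9.74%, where chance gives about 1 in 20. In whole DRG, uninjured mouse 1 was the highest of its group for Kif1a (1673), Kif3a (378.4), Kif3c (551.6) and Klc2 (480.0), and SCI mouse 3 for Kif1a (1560) and Klc2 (416.9).

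In FACS neurons several of the distant mice had glia-rich wells. Naive mouse 6 was lowest for Dync1i1 (37.49) and highest for Kifc2 (50.83), and naive mouse 5 stood apart for Kif3b (59.78). SNI 3d mouse 3, with only glia-rich wells, was lowest for Kif1b (414.7) and Kif21a (315.5) and highest for Kif16b (95.74). SNI 3d mouse 2, with no glia-rich well, was lowest for Dync1i2 (357.8). SCI 1d mouse 2 was highest for Kifc2 (20.29) and SCI 1d mouse 4 lowest for Klc2 (17.21). What set these mice apart was not tested.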

How the results depend on the processing

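By edgeR with all wells 0 motors were called in each of the 7 comparisons, and 204 of 221 recomputed counts stayed at that value, while the 221 member medians moved by less than the spread, although that between SNI 3d and SCI 3d went from 0.16 to -0.15 without glia-rich wells. DESeq2 called 3 in whole DRG (Kif26a, Kifc3, Kif16b), 2 at SNI 1d, 5 at SNI 3d, 2 at SCI 1d, 1 between the injuries at 1 day and 3 at 3 days, which are 1.82% to 9.09% of the motors, where DESeq2 called 3.63% to 9.14% of all genes. Fitting every gene with at least 1 read called 1 in whole DRG, Kif26a. At SNI 3d, at least 20 reads in at least 4 mice and a set term each called 1, Kif22. Without glia-rich wells 4 were called at SNI 1d, 2 at SNI 3d and 1 between the injuries at 1 day. Leaving out each mouse in turn gave 0 to 1 calls in whole DRG (Kif26a, without SCI mouse 3) and 0 to 2 at SNI 3d. There, leaving out SCI 1d mouse 2 called Kif22, naive mouse 5 Kifc2 and Kif1bp, naive mouse 6 Kifc2 and Kif22, and SCI 3d mouse 3 Kif21a. The log2 fold change of Kifc2 at SNI 3d ran from -4.98 to -2.39 over these fits. For the filter, set-term and leave-one-mouse-out fits the shares of all genes called are not given here. Their counts of motors thus have no background beside them. Of 363 values of single genes 20 newly passed the threshold and 0 changed direction. Leaving out both the glia-rich wells and the factors, which was chosen after seeing the data, called 0. The cause of these differences was not tested.

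With the replicate number as a block 0 motors were called in each comparison. Of the pairs of mice that shared a number, 1 of 4 in whole DRG and 26 of 48 in FACS neurons correlated above 0.1. The highest correlations were 0.31 and 0.38. Pairs of unlike number are not given here, so whether the numbers pair the mice cannot be told from these values. In FACS neurons the variation of 1.19 limits what can be detected.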
